A study of Oreochromis niloticus with 12 samples.

Results

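The status difference of a transcript, dominant minus subordinate male, was compared between the pituitary and the brain of Nile tilapia (Oreochromis niloticus), gene by gene. The genes compared were the 685 that are listed in both tables of normalised read counts and have a mean of at least 10 in each tissue. They come from 710 genes shared by the tables, out of 27115 genes in the brain table and 714 in the pituitary table. The other 25 shared genes had a brain mean under 10. Just inside that limit stood hsd17b7 at 10.4, myom1 at 10.7 and LOC100696012 at 10.7, and just outside it theg at 8.90, LOC106096852 at 8.54 and LOC109204571 at 8.30. A further 4 pituitary genes had no row in the brain table used here, namely LOC100691966, LOC112843248, duoxa2 and gphb5. Of the 685 genes, 528 carried a name and 157 an identifier alone.

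All fish were mature males of the Lake Manzala strain, housed as pairs of males with females. Dominant, reproducing males and subordinate, non-reproducing males were told apart by watching behaviour, and brains and pituitaries were taken after 14 days. Each of the 4 groups (dominant pituitary, subordinate pituitary, dominant brain, subordinate brain) held 3 libraries, 12 in all. The labels say neither whether the numbered males came from separate tanks nor whether a brain and a pituitary of equal number came from the same fish, so p-values measure the spread between these libraries.

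The pituitary is driven by hypothalamic neurons of the brain, and in teleost fish their axons enter the gland itself. Gonadotropes of the gland make follicle-stimulating hormone and luteinising hormone, each a shared alpha subunit joined to its own beta subunit, and these act on the gonad. Somatotropes make growth hormone. Social rank of male cichlids is known to go with activity of this axis.

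Brain libraries held 23733115 to 26867631 recovered reads. Every one of the 714 pituitary genes reached p under 0.05 by the authors' deposited table, with 0.0499 the highest, so this table is a selection by outcome and its 1649554 to 7025630 reads per library are not library depths. The pituitary side of every result below is therefore a description of genes chosen for differing there. Growth hormone, gh1, took 49.6% to 84.2% of the values in that table. The labelled tissues could be checked in part: the neuronal markers elavl3 and stmn2a had brain means of 10693 and 16342, while the pituitary table listed cga, lhb, fshb and gh1 among 11 pituitary markers looked for. Being listed there depended on a status difference, so the listing itself does not check the tissue. These hormone genes were also read in the brain, at lower means. For gh1 the mean was 4322 in the brain and 2339953 in the pituitary, on separate scalings. In whole tissue, fewer cells of a type and less RNA per cell cannot be told apart. Values are normalised read counts, scaled separately in each tissue, and a difference is the dominant minus subordinate mean of log2(value + 1) with its standard error (SE). Of the 3 differences given, the brain difference and the pituitary difference lie within a table, and the pituitary minus brain difference subtracts the first from the second. Values of single libraries are given for replicates 1, 2 and 3 in that order, dominant against subordinate.

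Status differences had the same sign in both tissues in 422 of the 685 genes (61.6%) and opposite signs in 263 (38.4%). The 353 genes higher in dominant pituitaries were also higher in dominant brains in 63.7% of cases, and the 332 lower genes were also lower in 59.3%. Of all listed pituitary genes 52.1% were higher in dominant males, and in the brain 48.8% of all 21743 genes tested were. The class higher in both tissues held 225 genes, with median differences of 0.73 in the pituitary and 0.20 in the brain. The class lower in both held 197, with medians of -0.54 and -0.094. A further 128 genes were higher in the pituitary and lower in the brain (0.71 and -0.12), and 135 the other way (-0.55 and 0.073). The share of equal sign was read without a test, because the pituitary genes were picked by outcome and libraries of equal number resembled each other across tissues, as described below.

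**Figure D1:**
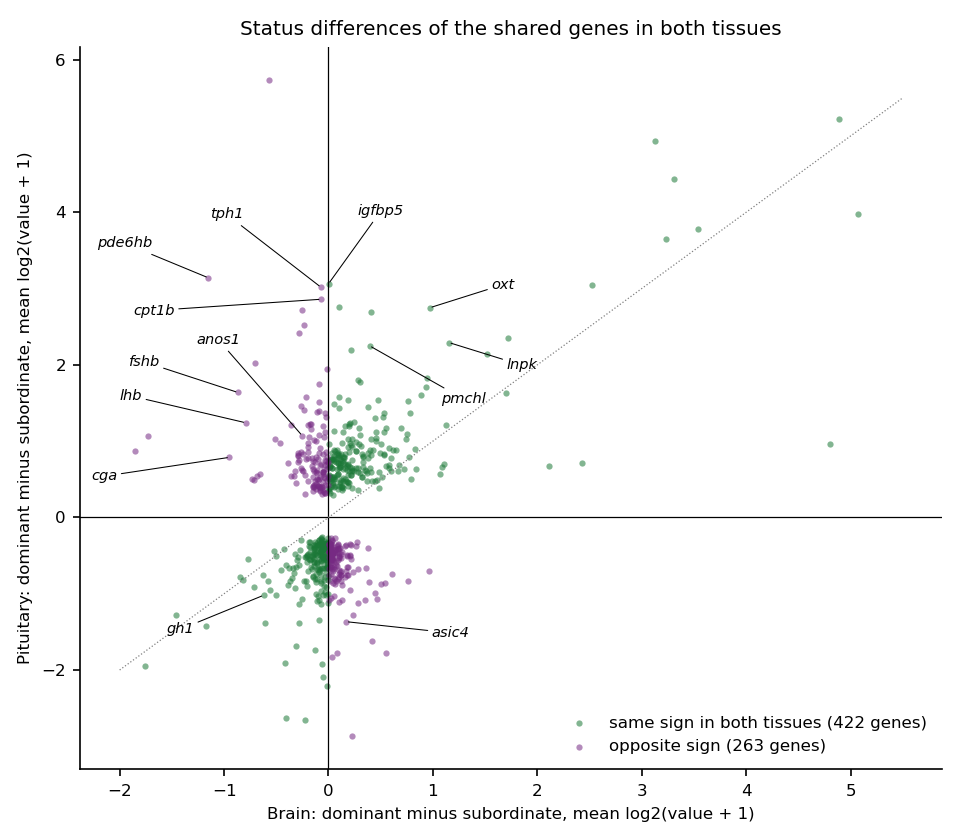
Brain (horizontal) and pituitary (vertical) status difference of each shared gene, dominant minus subordinate mean of log2(value + 1), with 1 point per gene and the dotted line marking equal differences. The points are empty around 0 on the vertical axis because the pituitary table lists genes chosen for differing there; 422 points lie in the quadrants of equal sign and 263 in those of opposite sign.

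Differences were larger in the pituitary for 657 of the 685 genes (95.9%), with a median size of 0.65 against 0.12 in the brain, where the median over all tested genes was 0.11. Selection in one tissue alone bears on this contrast. The precision also differed, with a median SE of 0.25 in the pituitary and 0.13 in the brain. Equal sign was more frequent where the brain difference was larger. It held for 165 of 301 genes with a brain difference under 0.1 in size (54.8%) and for 57 of 74 between 0.4 and 0.8 (77.0%). It held for 29 of 35 at 0.8 and above (82.9%). No test was made of this gradient, for the reasons given above for the share of equal sign. Across genes, which are not independent and share libraries, the Pearson correlation of the brain and pituitary differences was 0.429 (Spearman 0.277), and 0.277 over the 653 genes within 2 in both tissues.

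**Figure D2:**
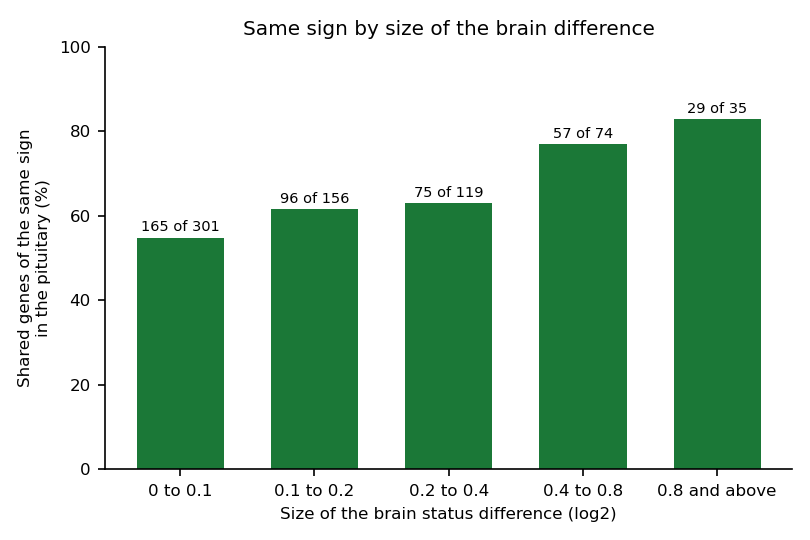
Percentage of shared genes whose pituitary difference has the sign of the brain difference (vertical axis, from 0) by the size of the brain difference in log2 units (horizontal axis), with gene counts above the bars. The share runs from 54.8% in the smallest bin to 82.9% in the largest.

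In the brain, 3 of the 685 genes passed limma at an adjusted p under 0.05 (0.438%), against 0.0276% of all genes tested. At an unadjusted p under 0.05 there were 78 (11.4%), against 5.17%, and dominant and subordinate brains did not overlap for 103 (15.0%), against 10.8%. Of those 78 genes, 62 had the pituitary's sign (79.5%), compared with 59.3% of the other 607 genes. No test was made of these shares. The members were picked by outcome in the pituitary, and libraries of equal number resembled each other across tissues. The count of 3 became 1 without brain dominant 2, dominant 3 or subordinate 3, 2 without dominant 1 or subordinate 2, and 4 without subordinate 1. In the pituitary 6 passed (0.876%, against 0.84% of the table), 384 had an unadjusted p under 0.05 (56.1%, against 56.6%) and 452 did not overlap (66.0%, against 66.0%), from which nothing is read since the table was chosen on that contrast. The 6 became 0 without pituitary dominant 3 and 245 without pituitary subordinate 1. DESeq2 on recovered reads called 19 of the 685 in the brain and 177 in the pituitary. Its share over all genes tested is not given here, so nothing is read from these 2 counts. The test of the pituitary minus brain difference passed adjustment in 0 genes (0.0%), with a smallest limma adjusted p of 0.0515. It passed in 4 when all 12 libraries entered a single limma fit, and 221 had an unadjusted p under 0.05 (32.3%). The pituitary differences in this test come from genes chosen on that same contrast, which favours small p-values. Its p-values, here and for single genes below, therefore describe the chosen genes, and nothing is read from which of them pass. The count of 0 became 130 without pituitary subordinate 1, 13 without brain subordinate 1 and 9 without pituitary dominant 1. It became 6 without pituitary subordinate 3 and 2 without brain dominant 1. It was 1 without brain dominant 3, brain subordinate 2, brain subordinate 3 or pituitary dominant 2. Pituitary subordinate 1 stood furthest from its group mean, with a root mean square deviation of 0.654 (log2) over these genes, against 0.389 to 0.567 in the other 5 pituitaries.

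Gonadotropin transcripts were higher in dominant than in subordinate pituitaries and, in the same comparison, lower in dominant than in subordinate brains, without overlap in either tissue. The brain differences did not pass limma (adjusted p = 0.934 for fshb, lhb and cga). Their unadjusted limma p was 0.0241, 0.134 and 0.0501. For fshb, the beta subunit of follicle-stimulating hormone, dominant pituitaries 1, 2 and 3 held 56643, 89685 and 52270.4 normalised reads and subordinate pituitaries 1, 2 and 3 held 33451, 22564 and 11662. The brains, listed in the same order, held 111, 132 and 102 against 162, 164 and 343. The differences were 1.64 ± 0.42 in the pituitary and -0.87 ± 0.30 in the brain, and the pituitary minus brain difference was 2.51 ± 0.51 (SE, n = 3 per group, limma adjusted p = 0.0606). Its adjusted p was 0.01003 without pituitary subordinate 1, 0.0312 without brain subordinate 1 and 0.0489 without pituitary subordinate 3, and 0.0563 to 0.149 without each other library by limma. With equal numbers paired across tissues it was 0.125 by limma.

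For lhb, the beta subunit of luteinising hormone, the pituitaries held 229269.9, 305773 and 257273 in dominant and 66754, 110224 and 185662 in subordinate males, and the brains 215, 281 and 283 against 284, 311 and 1011. Dominant brain 3 and subordinate brain 1 were nearly equal for lhb, at 283 and 284. The pituitary minus brain difference was 2.03 ± 0.61 (SE, limma adjusted p = 0.0832, and 0.121 with equal numbers paired across tissues), from 1.24 ± 0.40 and -0.79 ± 0.47. For cga, the shared alpha subunit, the pituitaries held 205698, 317202 and 175794 against 123787, 104056 and 173241, and the brains 234, 268 and 340.1 against 353, 415 and 1054. Dominant pituitary 3 and subordinate pituitary 3 lay close together for this gene. The pituitary minus brain difference was 1.74 ± 0.52 (SE, limma adjusted p = 0.0832). That adjusted p was 0.0485 without pituitary subordinate 1, 0.0529 to 0.162 without each other library and 0.144 with equal numbers paired across tissues. Growth hormone, gh1, had negative differences in both tissues, at 1031202, 1855575 and 1323370.5 against 1252854, 3063158 and 5513556 in the pituitary and 2809.8, 3109 and 3866 against 3763, 3825 and 8557 in the brain. Its groups overlapped in both tissues, its differences were -1.02 ± 0.66 and -0.62 ± 0.32, and the pituitary minus brain difference was -0.40 ± 0.73 (SE, limma adjusted p = 0.635), or 0.099 without pituitary subordinate 3. These 4 were the members among 14 symbols of pituitary hormones looked for.

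Subordinate brain 3 held the most of all 4 hormone transcripts. It was the highest brain library for 10 of 11 pituitary markers looked for, which also included prl, pomc, smtla, tshba, pou1f1 and pitx1. It was also the highest brain for both erythrocyte markers, alas2 at 3200 and slc4a1a at 2370, and the lowest for the myelin and glial markers mbpa, plp1b, sox10 and fabp7a. All 5 glial and myelin markers looked for had higher means in dominant brains. Their sums overlapped, at 106159 to 124393.5 in dominant and 79288 to 124406.5 in subordinate brains. Of the 11 pituitary markers, 0 had a higher mean in dominant brains. The lower brain means of fshb, lhb and cga were thus shared by the other pituitary markers. The 11 pituitary markers summed to 10408 to 15045 normalised reads in dominant brains and 13918 to 29625 in subordinate brains. Without that library the brain difference was -0.51 for fshb, -0.21 for lhb and -0.46 for cga, and the pituitary minus brain difference was 2.15, 1.45 and 1.25. The part of any of these marker differences in the brain differences was not tested.

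**Figure D3:**
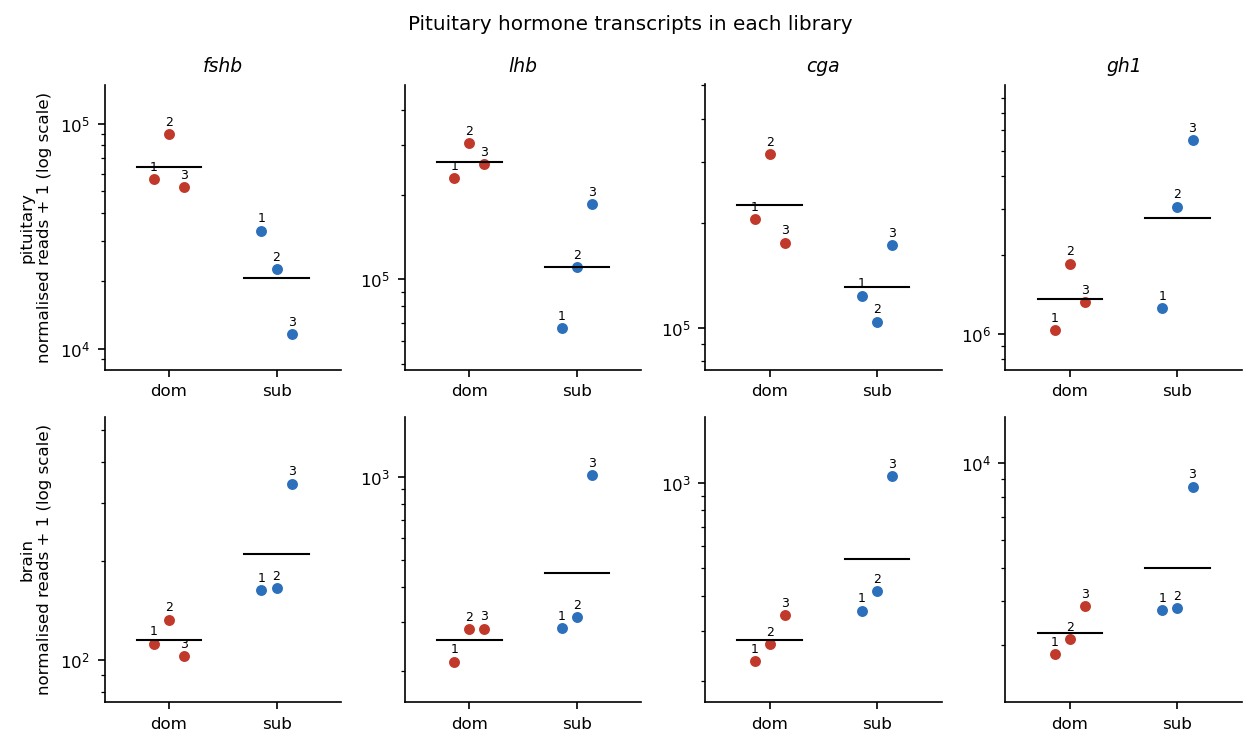
Normalised reads + 1 (log axes, scaled per panel) of 4 hormone genes in each library of the pituitary (top) and brain (bottom); points are numbered by replicate and bars are the means on the log scale. The 3 gonadotropin subunits are higher in dominant pituitaries and lower in dominant brains, and subordinate brain 3 is the highest brain for all 4 genes.

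The other genes without overlap in either tissue and with opposite signs were 10 with a higher pituitary value and 7 with a lower one. Among the higher ones, anos1, whose human product anosmin guides the migration of gonadotropin-releasing hormone neurons, stood at 103, 133 and 124 in dominant and 45.5, 59.9 and 65.3 in subordinate pituitaries. In the brain it stood at 2243, 2337 and 2435 against 2881, 2520.3 and 2972. Its pituitary minus brain difference was 1.33 ± 0.27 (SE, limma adjusted p = 0.0815). The gene reln, for the matrix protein reelin that positions neurons, stood at 55.8, 104 and 63.0 against 35.6, 41.2 and 41.0 in the pituitary and at 4828, 4822 and 5797 against 6222, 6268 and 6355 in the brain (1.14 ± 0.36, limma adjusted p = 0.112). The gene pde6hb, a subunit of the cone photoreceptor phosphodiesterase and on the list of retina and pineal markers, ranged over 4119, 17235 and 5291 against 1259, 3499.7 and 123 in the pituitary, and over 9.33, 10.3 and 9.42 against 15.5, 14.5 and 51.3 in the brain, near the minimum mean of 10 (4.29 ± 1.31, limma adjusted p = 0.0972). Its highest brain was subordinate brain 3. Without that library its brain difference was -0.58, against -1.15 with all libraries, and its pituitary minus brain difference was 3.72.

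With lower pituitary and higher brain values in dominant males, the rule named 6 genes. The acid-sensing ion channel gene asic4 stood at 350.4, 155 and 306 in dominant and 660.0, 769 and 568 in subordinate pituitaries, and at 880.3, 767 and 747 against 717, 714 and 690.1 in the brains. Its differences were -1.37 ± 0.32 and 0.17 ± 0.08, and the pituitary minus brain difference was -1.54 ± 0.33 (SE, limma adjusted p = 0.0815). The gene arg2, mitochondrial arginase, stood at 2169, 1797 and 1920.1 against 2383, 3975 and 3242 in the pituitary and at 945, 1012 and 884 against 753, 856 and 731 in the brain (-0.96 ± 0.23, limma adjusted p = 0.0815). Smaller gaps separated tmed3, of transport from the endoplasmic reticulum, tram1, of the translocation channel, pofut2, a fucosyltransferase of the endoplasmic reticulum, and miga1, of mitochondrial fusion. Their pituitary minus brain differences ran from -0.65 for tram1 to -0.53 for pofut2 (limma adjusted p = 0.0946 to 0.123).

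Some of the genes with the smallest p of the pituitary minus brain difference had brain levels that lay close together. The smallest p of the pituitary minus brain difference belonged to igfbp5, whose product binds insulin-like growth factors. Dominant pituitaries held 233, 587 and 411 normalised reads and subordinate ones 39.3, 37.4 and 61.5, with every dominant value above every subordinate one. The brains held 507, 456 and 516 against 472, 493 and 512, which overlapped, so that a brain difference of 0.00 ± 0.08 counted it among the genes of equal sign. Its pituitary minus brain difference was 3.06 ± 0.39 (SE, limma adjusted p = 0.0515). That adjusted p was 0.0136 to 0.149 with 1 library left out, highest without pituitary dominant 3, 0.00675 in a single limma fit of all 12 libraries, and 0.0733 with equal numbers paired across tissues.

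The gene cpt1b, for an enzyme that admits fatty acids to mitochondria, stood at 416, 1729 and 1011 against 109, 172 and 98.8 in dominant and subordinate pituitaries and at 102, 117 and 157 against 123, 128 and 138 in the brains. Its pituitary minus brain difference was 2.93 ± 0.54 (SE, limma adjusted p = 0.0643). The gene cdc42ep1b, an effector of the small GTPase Cdc42, stood at 585, 788 and 752 against 286, 352 and 268 in the pituitary and at 709, 859 and 783 against 685, 787 and 589.5 in the brain (1.03 ± 0.22, limma adjusted p = 0.0643). In its brain values the groups overlapped. The other positive differences of smallest p were fibcd1a, a transmembrane receptor that binds acetylated structures in humans (2.74 ± 0.55), and lingo3b, a leucine-rich repeat protein (0.84 ± 0.19). On the negative side stood diras1b, a small GTPase (-0.87 ± 0.20), kif5ab, a kinesin heavy chain (-1.17 ± 0.30), ptpn7, a tyrosine phosphatase (-1.67 ± 0.46), and si:ch211-67f13.7 (-1.54 ± 0.44, from -1.08 in the pituitary and 0.46 in the brain). Limma adjusted p ran from 0.0606 to 0.0827 over these 6. LOC109202200 had the widest pituitary minus brain difference of the 685 genes, 6.31 ± 2.07 (limma adjusted p = 0.123), with pituitary values of 20611, 18258 and 1574 against 6.15, 2034 and 269 that overlapped. It was chosen after its values were seen.

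The 3 genes that passed limma in the brain were higher in dominant males in both tissues. The gene lnpk, for lunapark of the endoplasmic reticulum, held 1023, 613 and 821 in dominant and 177, 129 and 190.2 in subordinate pituitaries, and 444, 383 and 379.9 against 172, 188 and 179 in the brains. The groups lay far apart in both tissues, with differences of 2.29 ± 0.25 in the pituitary and 1.15 ± 0.10 in the brain (limma adjusted p = 0.038, and 0.0811 to 0.372 without each brain library). The pituitary minus brain difference of 1.14 ± 0.27 did not pass (limma adjusted p = 0.0815, and 0.0352 without pituitary subordinate 1).

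Genes without a name fell outside the naming rule, and those given here were chosen after their values were seen. LOC100703972 held 245, 235 and 249.8 against 24.6, 13.7 and 14.0 in dominant and subordinate pituitaries and 566, 548 and 535 against 45.5, 53.0 and 41.2 in the brains. Its pituitary difference of 3.78 ± 0.32 and brain difference of 3.54 ± 0.13 were close (pituitary minus brain 0.24 ± 0.34, limma adjusted p = 0.555). LOC100703705 held 125, 155 and 155 against 19.7, 6.24 and 9.32 in the pituitary and 299, 295 and 276 against 40.1, 22.9 and 29.2 in the brain. Both passed limma in the brain, as lnpk did. LOC100701774 held 166, 163 and 165 against 4.92, 3.74 and 4.66 in the pituitaries, without overlap. Its brains held 159, 133 and 137 against 2.73, 27.0 and 41.2, which did not overlap either (limma adjusted p = 0.855). The loci LOC100703972 and LOC100703705 lie in 1 run of 4 neighbouring members in the RefSeq gene order, together with LOC102082670 and mcf2l2, and all 4 had equal signs. It was the longest of 46 runs of members no more than 3 genes apart, which held 100 of 582 members that could be placed.

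Neuropeptide genes were also among the genes of equal sign. The gene oxt, for isotocin, the fish oxytocin, held 56.8, 138 and 66.9 normalised reads in dominant and 3.69, 26.2 and 13.1 in subordinate pituitaries. The brains held 7125, 9847 and 9839.6 against 5367, 5949.7 and 2862. Its groups did not overlap in either tissue, with differences of 2.75 ± 0.76 and 0.97 ± 0.28 and a pituitary minus brain difference of 1.78 ± 0.81 (SE, limma adjusted p = 0.157), or 1.09 without pituitary subordinate 1. The gene pmchl, of the melanin-concentrating hormone family, held 3244, 829.6 and 924 against 90.9, 680.0 and 370.2 in the pituitary and 823, 719 and 1133 against 683, 672 and 642 in the brain. Dominant pituitary 1 stood well above the rest for it, and the pituitary minus brain difference was 1.85 ± 0.84 (SE, limma adjusted p = 0.157), or 1.04 without pituitary subordinate 1. A second gene of that family, pmch, had pituitary values of 16.8, 11.1 and 14.8 against 165, 23.7 and 3.73, which overlapped. The gene crhbp, for the binding protein of corticotropin-releasing hormone, was lower in dominant pituitaries at 10744, 8396 and 7938 against 15287, 12982 and 21494, while the brains held 333, 309 and 424 against 359.7, 368 and 383. These 4 were the members among 36 neuropeptide symbols looked for, and 3 of them had equal signs.

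**Figure D4:**
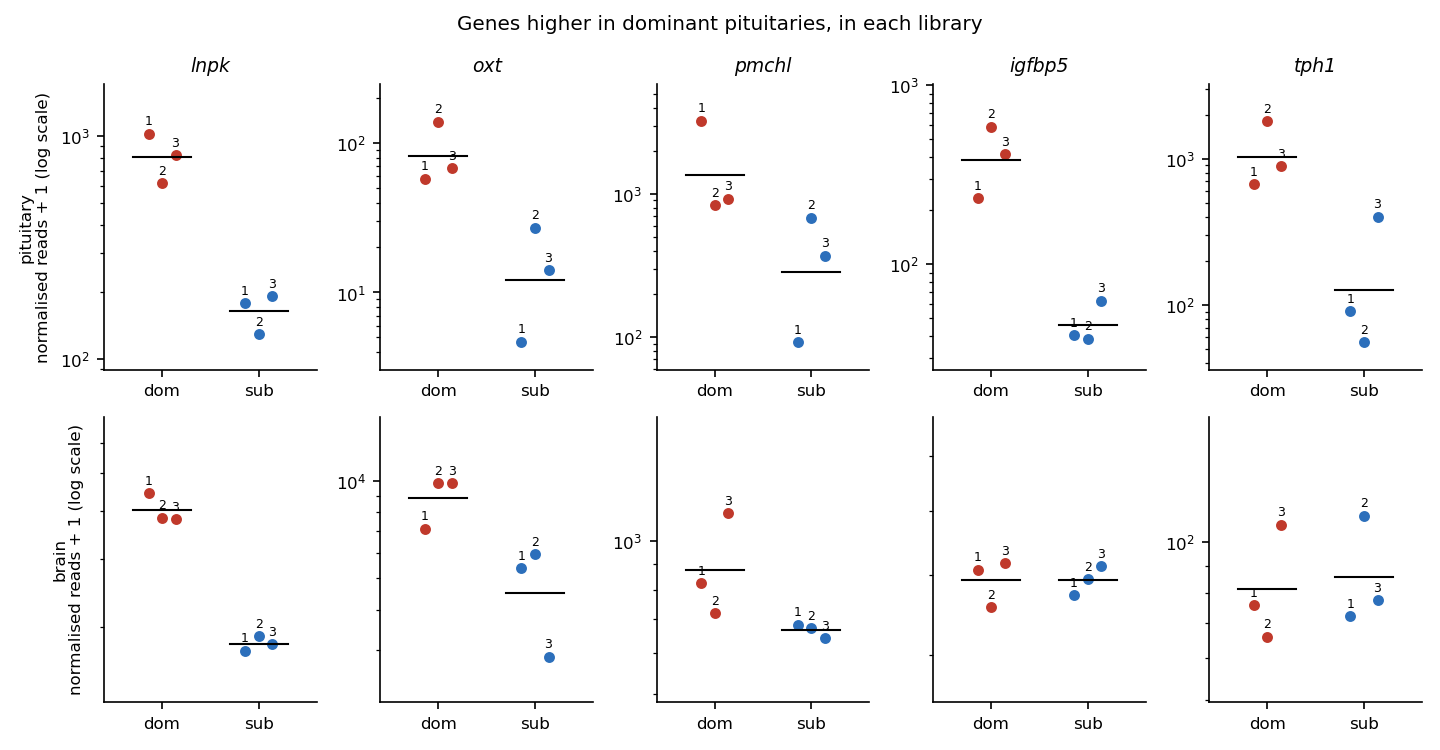
Normalised reads + 1 (log axes, scaled per panel) of 5 genes higher in dominant pituitaries, in each library of the pituitary (top) and brain (bottom), with replicate numbers and the means on the log scale as bars. The genes lnpk and oxt are also higher in all dominant brains, while igfbp5 and tph1 overlap between the brain groups.

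A further 10 named genes of equal sign without overlap in either tissue were picked by the naming rule. Higher in both were engl, an endoglin-like gene (1.02 ± 0.32 and 0.74 ± 0.20 in pituitary and brain), and lgals3bp.3, a galectin-3-binding protein gene (1.62 ± 0.53 and 1.70 ± 0.46). So were myoc, for myocilin (0.67 ± 0.27 and 1.08 ± 0.35), and si:dkey-206f10.1 (1.17 ± 0.64 and 0.70 ± 0.34). Lower in both were tedc2, of centriolar tubulin (-0.82 ± 0.30 and -0.82 ± 0.27), slc25a17, a peroxisomal carrier (-0.50 ± 0.23 and -0.50 ± 0.16), and sec22a, of vesicle traffic (-0.42 ± 0.17 and -0.28 ± 0.14). They also included hmcn2, a hemicentin (-0.29 ± 0.13 and -0.26 ± 0.12), qsox2, a sulfhydryl oxidase (-0.52 ± 0.23 and -0.15 ± 0.07), and ydjc (-0.90 ± 0.41 and -0.21 ± 0.12). None of these 10 passed limma in the brain (adjusted p = 0.855 to 0.934). In all, 73 genes lay apart in both tissues, of which 53 had equal and 20 opposite signs, and 40 of the 53 were higher in dominant males. These 73 were 10.7% of the 685 genes. Of the genes apart in the pituitary 16.2% were also apart in the brain, against 15.0% of all 685, so the count is near its background.

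A few genes differed more in the brain. LOC100706277 held 2355, 4999 and 2599.6 in dominant and 464, 81.0 and 36.2 in subordinate brains, against 766, 726 and 662 against 528, 389 and 242 in the pituitaries. Its pituitary minus brain difference was -3.84 ± 0.91 (SE, limma adjusted p = 0.0815). The gene bmp16, of the bone morphogenetic protein family, held 443, 452 and 657 against 163, 97.7 and 51.3 in the brains and 72.6, 109 and 43.3 against 41.8, 47.4 and 38.2 in the pituitaries, where the groups stood closer together. Both were chosen after their values were seen, among 28 genes larger in the brain.

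Of the genes for steroid action, all 3 members among 22 symbols were higher in dominant pituitaries. The gene cyp19a1b, for the aromatase that makes oestrogens in fish brain and pituitary, held 2486, 3171 and 5943 against 1064, 2396 and 2106 in the pituitary and 3221, 4253 and 3117 against 1769.5, 3649.6 and 2548 in the brain. The progesterone receptor gene pgr held 64.2, 178 and 132 against 47.9, 52.4 and 47.6 in the pituitary, without overlap, and 13.5, 13.2 and 14.7 against 6.37, 14.5 and 19.1 in the brain. The gene hsd3b1, for a steroid dehydrogenase, had groups that overlapped in both tissues. Its differences were 0.50 in the pituitary and -0.72 in the brain, and its pituitary minus brain difference was 1.21 ± 0.45. The differences of these 3 genes did not pass limma (adjusted p = 0.123 to 0.314).

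The lists of secretory granules and of protein folding gave 5 members of 37 symbols and 6 members of 43, and 0 of these 11 passed limma's test of the pituitary minus brain difference. Of the 5 secretory granule members 4 had a negative pituitary difference, and 3 of the 5 a positive brain difference. The granule protein genes scg2 and scg2b, of the secretogranins, held 73320.1, 84989.7 and 105673 against 104178, 114663 and 120358, and 8674, 11775 and 12579 against 14371, 18614 and 20436, in the pituitaries. Their brain values were 4256, 4451 and 4899 against 3858, 3939 and 3511, and 23837, 25671 and 30443 against 27306, 25428 and 20950.4. The pituitary minus brain differences were -0.64 ± 0.24 and -0.82 ± 0.25 (limma adjusted p = 0.128 and 0.0946). For rab3a, another named member of the secretory granule list, the pituitary minus brain difference was positive, at 0.37. Of the 6 members of the protein folding list 5 had a negative pituitary difference and 4 a negative brain difference. For xbp1, a transcription factor of the unfolded protein response, the pituitary minus brain difference was -0.53 ± 0.23, and it was -0.46 ± 0.17 for spcs3, of the signal peptidase. For atf6b, another gene of that response, it was 0.48 ± 0.18, from a positive pituitary and a negative brain difference.

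The remaining lists had few members. Of gonadotropin second messengers, 4 of 43 symbols were members and 3 were higher in dominant pituitaries. The inositol trisphosphate receptor gene itpr1b had a pituitary minus brain difference of 0.81 ± 0.36, dusp2, a phosphatase of mitogen-activated kinases, 2.70 ± 1.22, and plcb4, a phospholipase C, -0.94 ± 0.43, or -0.49 without pituitary subordinate 3. Of the growth factor and activin list 2 of 30 were members, igfbp5 and irs2, an insulin receptor substrate (-0.45 ± 0.30, or -0.23 without brain subordinate 1). For ion channels there were 2 of 62, asic4 and asic1c (1.96 ± 0.41). Sterol and lipid metabolism gave 3 of 57, among them cpt1b, abca1b, a cholesterol exporter (-0.50 ± 0.26), and hsd17b7 (0.38 ± 0.58). Single members came from the lists of neurons (slc17a6, a glutamate transporter, 0.78 ± 0.25), immediate early genes (egr2, 2.76 ± 1.37), immune genes (stat3, -0.76 ± 0.26), vessels (pdgfrb, 0.28 ± 0.21, or 0.14 without pituitary subordinate 2) and matrix (col12a1a, 0.52 ± 0.36). No member came from pituitary receptors and transcription factors, though 30 of these were tested in the brain, or from the cell cycle, with 38 tested. Of 45 members on any of the lists, 0 passed limma's test of the pituitary minus brain difference and 20 had an unadjusted p under 0.05, where 32.3% of all 685 genes had one.

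Some genes from marker lists of other cells also stood higher in dominant pituitaries, with their part in the results above not tested. Only markers chosen for differing in the pituitary could be seen. Both members among 15 erythrocyte symbols were higher, alas2 at 357, 140.3 and 192 against 132, 162 and 78.3 and slc4a1a at 290.4, 141 and 105 against 76.2, 115 and 36.4. They summed to 281 to 647 normalised reads in dominant and 115 to 277 in subordinate pituitaries. All 3 members among 26 glial and myelin symbols were higher there too, gja1 (0.68 ± 0.26), mpz (0.88 ± 0.58) and cldn11a (0.52 ± 0.17). In mpz dominant pituitary 2 held 378 against 82.1 and 115 in the other dominant pituitaries. Without that library the pituitary minus brain difference of mpz was -0.16, against 0.49 with all libraries. The pineal enzyme gene tph1, which starts serotonin synthesis, held 672, 1802 and 892 in dominant and 89.7, 54.9 and 401 in subordinate pituitaries and 74.7, 64.9 and 107 against 71.0, 111 and 76.5 in the brains. Its pituitary minus brain difference was 3.09 ± 0.79 (SE, limma adjusted p = 0.0827). The mean of tph1 was 652 in the pituitary and 84.2 in the brain, on separate scalings, and which cells held it was not tested. The other member of the retina and pineal list of 30 symbols, pde6hb, was also higher in dominant pituitaries, and the median pituitary difference of the 2 was 3.08. Of the other retina and pineal markers, aanat2 and rho were listed in the brain table, and no value of theirs in the pituitary is used here.

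Brain and pituitary libraries of equal number and status resembled each other in how they departed from their group means. Over the 685 genes the correlation of these deviations was 0.582, 0.442 and 0.503 for dominant 1, 2 and 3, and 0.186, 0.241 and 0.201 for subordinate 1, 2 and 3. The 12 combinations of the same status and unequal number ran from -0.425 to 0.011. Values were smaller once genes with wide swings were left out. Over the 581 genes with all deviations under 1 they ran from 0.0819 to 0.207. Deviations within a group of 3 sum to 0, which pushes unequal numbers of the same status down, so the values are not independent and are given without a p. The 18 combinations of unequal status, where the deviations of each group likewise sum to 0, ran from -0.254 to 0.36. The highest, pituitary dominant 3 with brain subordinate 2, was above all 3 subordinate values of equal number.

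**Figure D5:**
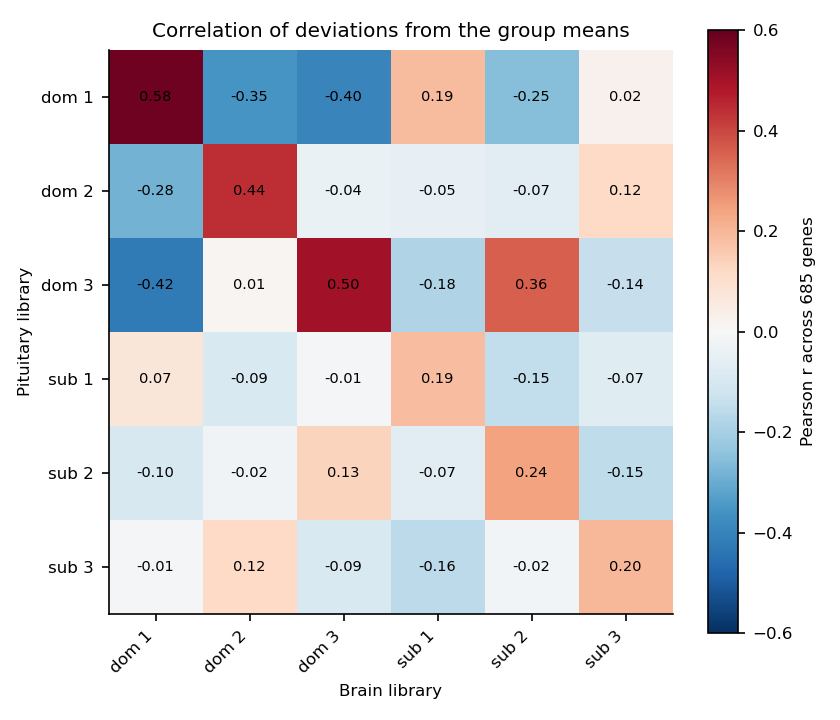
Pearson correlation over the shared genes of each pituitary library's deviations from its group mean (rows) with those of each brain library (columns), coloured from -0.6 to 0.6. The diagonal, where number and status are equal, holds 0.19 to 0.58, and unequal numbers of the same status hold 0.01 or less.

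Some genes were on in the same numbered libraries of both tissues. LOC100689985 held 45.2, 7529 and 9178 in dominant pituitaries 1, 2 and 3 and 82.9, 15267 and 13355 in the dominant brains, so dominant 1 was low in both tissues. The subordinate libraries held 20.9, 68.6 and 39.2 in the pituitary and 73.8, 85.2 and 102 in the brain. For tmprss15, the gene of enteropeptidase, dominant 3 and subordinate 2 were low in both tissues, with 787, 409 and 0.984 against 36.9, 2.495 and 55.9 in the pituitary and 329, 357 and 6.28 against 123, 1.04 and 143 in the brain. In neu3e, a sialidase gene, dominant 3 was lowest and subordinate 3 highest in both, at 112, 171 and 31.5 against 159.8, 162 and 345, and 317, 291 and 30.3 against 349, 300.2 and 570.4. These 3 were chosen after their values were seen. By rule, the 6 named genes whose deviations followed each other most were rsph9, of ciliary radial spokes, sntb1, a syntrophin, telo2, spa17, carhsp1 and igfbp7, with correlations of 0.95 to 0.98 over the 6 pairs. They were ranked first among the 528 genes with a name. Of all 685 genes, 34 had a correlation of 0.9 or above and 413 one above 0 (60.3%), with a median of 0.19. The gene rsph9 held 156, 27.5 and 178 against 18.4, 89.8 and 25.2 in the pituitary and 90.2, 40.5 and 85.8 against 29.1, 68.6 and 30.2 in the brain. Its dominant 2 and subordinate 2 libraries went against their groups in both tissues.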

How the data were processed

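RNA sequencing covered 12 libraries of brain or pituitary, 3 for each tissue and status, which were grouped by the tissue and status in the labels and numbered by their titles. Per the labels' protocols, extraction used miRNeasy columns and library preparation used TruSeq v2 reagents. Tools named by the submitters' processing notes are STAR 2.201, HTSeq, Trim Galore, FastQC 0.11.4, DESeq and DESeq2. Genome build, annotation, strandedness and the handling of multi-mapping reads were not given in the sources used here. Near-identical loci may therefore share reads. Values deposited by the authors are a signal of read counts scaled per library. In each library they were whole multiples of 1 step within 0.01 reads, from which whole reads and size factors (0.956 to 1.10 in the brain, 0.801 to 1.52 in the pituitary) were recovered. The authors' deposited log2 fold changes were not used, and their deposited p-values served to show that the pituitary table holds genes under 0.05. A further 251 blank lines of the brain table were left out, and 0 columns of values were unused. Names for LOC identifiers came from a RefSeq gene table, which matched 346 of 346 and gave a symbol to 189. No positions are printed, as the build is not stated.

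Each tissue was fitted on its own whole table (mean of at least 10) with limma 3.58.1 (R 4.3.3), using log2(value + 1), eBayes with trend=TRUE, two-sided, with Benjamini-Hochberg adjustment and a threshold of 0.05. The pituitary minus brain difference was divided by the root of its summed squared standard errors, referred to a t distribution with Welch-Satterthwaite degrees of freedom, and adjusted over the 685 genes. It takes the tissues as independent. Its pituitary part comes from genes chosen by outcome, so its p-values are not those of a test on unselected genes. The scripts were tested on simulated data. An exact permutation test of 3 against 3 cannot go below 0.1. Differences on this scale understate the change of low genes.

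Members, gene lists and rules were chosen with earlier results of these data known. Named genes were, per sign class, up to 6 named genes without overlap in either tissue by their smaller difference; up to 6 per direction of the pituitary minus brain difference by smallest p; all members of the 5 lists on hormones, receptors, steroids, growth factors and neuropeptides; up to 3 of each other list; and up to 6 whose number-and-status pairs correlated most.

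Equal numbers were checked as pairs. Deviations from group means correlated between brain and pituitary libraries of equal number and status at 0.186 to 0.582 in all 6 pairs. These values fell to 0.0819 to 0.207 without genes of wide swings, and a combination of unequal status reached 0.36. The labels do not say that equal numbers mark the same fish, and whether they do was not tested. With equal numbers as a block across tissues no call of the pituitary minus brain difference changed. The limma adjusted p of fshb was then 0.125, against 0.0606 without the block. Alternatives were pseudocounts of 0.5 and 5, filters (none, 50), TMM rescaling, blocks, each library left out, robust limma, a single fit of 12 libraries, edgeR 4.0.16 and DESeq2 1.42.0 on recovered reads, and a threshold of 0.1. Figures were drawn with matplotlib 3.10.9.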

Additional observations from a re-analysis of the deposited data

Results flagged for a closer look

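Of the 685 genes, 20 lay apart in both tissues with opposite signs and 53 with equal signs, where 15.0% of the 685 lay apart in the brain and 66.0% in the pituitary. Of the genes apart in the pituitary 16.2% were also apart in the brain, so the joint count is near its background. The naming rule picked 12 of the 20, up to 6 per sign class. By that rule, in these 12 named genes every dominant pituitary lay on one side of every subordinate pituitary and the brains lay apart the opposite way. The pituitary minus brain log2 difference was 2.51 for fshb, 2.03 for lhb, 1.74 for cga, 4.29 for pde6hb, 1.33 for anos1 and 1.14 for reln, all higher in dominant pituitaries. It was -1.54 for asic4, -0.96 for arg2, -0.65 for tram1, -0.58 for tmed3, -0.57 for miga1 and -0.53 for pofut2, all lower there. The test of the difference itself did not pass adjustment for any of the 12 (limma adjusted p = 0.0606 to 0.123), and the pituitary side was chosen by outcome. None of the 12 was among the 3 genes that passed limma in the brain. The brain limma adjusted p was 0.934 for fshb, lhb, cga, anos1, asic4 and pde6hb.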

How the results depend on the processing

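Equal sign held for 422 genes and for 394 to 429 with 1 library left out, and for 366 of 608 genes with a mean of at least 50. The brain count of 3 was 1 to 4 with 1 library left out, 19 by DESeq2, and 1 with the replicate block in each tissue. Deviations of dominant and subordinate libraries of equal number correlated at -0.048 to 0.139 in the pituitary and -0.080 to 0.234 in the brain. Those of unequal number ran wider, from -0.199 to 0.180 in the pituitary and from -0.289 to 0.386 in the brain. Whether equal numbers mark males housed together was not tested. The pituitary count of 6 was 0 to 245 with 1 library left out, 177 by DESeq2 and 583 at an adjusted p under 0.1. For both DESeq2 counts the share over all genes tested is not given here. For the pituitary minus brain difference the count of 0 was 0 to 130 with 1 library left out. It was 1 at a mean of at least 50, 1 with TMM rescaling, 1 with robust limma, 4 in a single fit of 12 libraries and 70 at an adjusted p under 0.1. It was 0 with the replicate block in each tissue and 0 with tissues paired by number. The count of 221 at an unadjusted p was 127 to 321 with 1 library left out. Both of these counts rest on genes chosen on the pituitary contrast, so nothing is read from them. Of 1437 values for 70 named genes under the alternatives, 1379 kept direction and side of the threshold, 49 came to pass, 7 no longer passed, all of them the brain difference of lnpk, and 2 reversed. With 1 library left out the pituitary minus brain difference ran from -0.16 to 0.93 for mpz and from -0.97 to 0.099 for gh1. That difference moved by more than 1.5 times with some library left out in 18 of 59 named genes, also including -2.85 to -0.28 for pmch and 0.12 to 1.45 for rsph9. The cause was not tested. The depth of the pituitary libraries is unknown, which limits what low genes there can show.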
